A study of Bos taurus with 30 samples.

Results

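Protease inhibitors of bovine skin were followed through the first 48 h of tick attachment, in animals classed as tick resistant or tick susceptible. The inhibitors were taken by gene symbol: serpins (SERPIN), cystatins (CST followed by a number or by A, B or M), Kazal-type inhibitors (SPINK), Kunitz-type inhibitors (SPINT and TFPI) and whey acidic protein domain inhibitors (WFDC). A probe set, the group of short probes that reads one transcript on the array, was a member when it was annotated with 1 gene symbol and that symbol fitted one of these names. This gave 43 probe sets of 29 genes (of 9155 genes named on the array) among 24016 probe sets that are not controls, of which 13292 carried 1 symbol. The symbols, not the measured values, chose the members.

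The animals were F2 cattle whose founders were Gyr (Bos indicus) crossed with Holstein (Bos taurus), and the tissue was whole skin from biopsies of tick feeding sites. Before infestation (0 h) there were 5 arrays of resistant and 3 of susceptible animals. At 24 h after infestation each phenotype had 6 arrays, and at 48 h each had 5. The 30 arrays came from 13 animals, 6 resistant and 7 susceptible, so most animals were measured more than once and not every animal was measured at every time. All animals shared the F2 background and there was no uninfested group at 24 h or 48 h, so time after infestation cannot be told apart from a repeated biopsy. The tick species, the age and sex of the animals and the rule that classed them as resistant are not given in the sources used here. Values are log2 signals scaled to the same trimmed mean in each array, and a difference of 1 is a doubling. Array medians lay between 7.17 and 7.40.

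Serpins inhibit serine proteases by offering a loop as bait and trapping the protease that cuts it, although some serpins have other roles. Cystatins block cysteine proteases such as the lysosomal cathepsins, and Kunitz-type inhibitors such as TFPI fill the active site of coagulation and membrane-bound serine proteases. In skin these families hold back proteases of shedding, clotting, complement and leukocytes, and a feeding tick adds inhibitors of its own from its saliva.

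Of the 43 probe sets, 24 probe sets of 16 genes reached their array's median signal in at least 3 arrays and were tested. They were 14 of 28 serpin probe sets (11 of 20 genes), all 5 cystatin probe sets (CST3 and CST6), 1 of 3 SPINT probe sets (SPINT2) and all 4 TFPI probe sets (TFPI and TFPI2). Neither SPINK probe set (SPINK1 and SPINK4) and not the 1 WFDC probe set (WFDC3) passed. A filter on high values passes a probe set on the group in which it is high, so the tested probe sets do not stand for all 43. Of the tested probe sets, 15 reached the array median in all 30 arrays.

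The 19 probe sets that were not tested had mean signals over 30 arrays from 1.56 to 6.63. Of these, 17 reached the median in 0 arrays, and SPINT1 (Bt.27234.1.S1_at, mean 6.63) and WFDC3 (mean 6.48) did so in 1 array each. Just inside the filter was TFPI (Bt.24864.1.S1_a_at, mean 6.04), which reached the median in 4 arrays, 3 of them resistant at 48 h. The serpin genes with no tested probe set were SERPINA3-7, SERPINA6 (corticosteroid-binding globulin), SERPINA7 (thyroxine-binding globulin), SERPINA10 (the inhibitor of coagulation factor X that uses protein Z), SERPINA11, SERPINA14 (a uterine serpin), SERPINB9 (the granzyme B inhibitor), SERPIND1 (heparin cofactor) and SERPINI2. SERPINB9 was read by 3 probe sets, with means of 4.13, 6.0 and 3.15. A low signal on this array bounds what the probes detected and does not show that a gene was silent.

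Several members lie close together in the cattle genome, with 0 to 2 other genes between neighbours, by the gene order of RefSeq on the assembly ARS-UCD2.0. SERPINA10, SERPINA6, SERPINA1, SERPINA11 and SERPINA14 form a run of 5 in which SERPINA1 alone was tested. SERPINB6, SERPINB9 and SERPINB1 form a run of 3 in which SERPINB9 alone was not tested. SERPINF2 lies close to SERPINF1, and SERPINI1 to SERPINI2. Probe sets of one gene are not independent, and the pairs for TFPI (Bt.24864.1), SERPING1 and SERPINA1 were each designed from one transcript record.

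No tested inhibitor passed an adjusted p of 0.05 in any of the 11 comparisons (limma, Benjamini-Hochberg over all 13809 probe sets tested). The comparisons were resistant against susceptible animals at each time, the later times against the earlier ones within each phenotype, and the difference between phenotypes in the 24 h and the 48 h response. The share of all 13809 probe sets called was 0% in every comparison except resistant against susceptible at 48 h, where it was 0.0145% (2 probe sets). The lowest adjusted p of any member was 0.259. Levels and differences are therefore given with their errors. A missed threshold does not show that levels were equal.

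At an unadjusted p under 0.05, 6 of 24 members were counted between resistant and susceptible animals at 48 h, where the share over all probe sets was 10.1%. They were TFPI (2 probe sets), CST3, SERPING1 and SERPINI1, higher in resistant animals, and CST6, lower. Between 48 h and 0 h in resistant animals the count was also 6 of 24, against 11% of all probe sets: TFPI (3 probe sets) higher at 48 h, and SERPINE2, CST3 and CST6 lower. Between 48 h and 24 h in resistant animals it was 3 of 24, against 9.65%: CST3 and TFPI higher at 48 h and SERPINE2 lower. All 3 comparisons use the same 5 resistant arrays at 48 h, so their counts are not separate evidence. The counts include TFPI probe set Bt.24864.1.S1_a_at, which passed the filter through the resistant 48 h arrays in which it is high, so its place in them supports nothing.

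These counts moved when single arrays were left out. No share over all probe sets is given for those fits, so the moves are not a result about the members. Between phenotypes at 48 h the count was 3 without resistant animal 3, 2 without susceptible animal 9 and 3 without susceptible animal 10. Between 48 h and 0 h in resistant animals it was 2 without the 0 h array of animal 4, 2 without the 48 h array of animal 1 and 3 without that of animal 2. Between 48 h and 24 h it was 1 without the 24 h array of animal 5, 1 without the 48 h array of animal 2, and 5 without the 48 h array of animal 5 or of animal 6. With the animal as a fixed replicate block, the counts were 9 for 48 h against 0 h and 7 for 48 h against 24 h in resistant animals, and the shares over all probe sets were 17.7% and 14.2%.

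The other comparisons held few such members. Their counts moved with single arrays too, except that of 24 h against 0 h in resistant animals, which stayed at 0. The count at an unadjusted p under 0.05 was 0 of 24 between phenotypes at 0 h (4.51% of all probe sets), 2 at 24 h (4.4%), and 0 between 24 h and 0 h in resistant animals (4.72%). In susceptible animals it was 1 between 24 h and 0 h (2.3%), 0 between 48 h and 0 h (0.949%) and 0 between 48 h and 24 h (1.88%). Between phenotypes at 24 h the count ran from 0 to 6 over the arrays left out, and 17 of the 30 arrays moved it by over 1.5 times. No share over all probe sets is given for those fits either. For the difference between phenotypes the count was 1 in the 24 h response (1.85%) and 0 in the 48 h response (2.93%). The 2 groups of arrays overlapped for each of the 24 members in each of the 9 comparisons of groups. The share of all probe sets whose groups did not overlap was 4.62% at 0 h, 0.167% at 24 h and 1.19% at 48 h between phenotypes. It was 0.681%, 1.98% and 0.898% for 24 h against 0 h, 48 h against 0 h and 48 h against 24 h in resistant animals, and 1.5%, 1.35% and 0.152% in susceptible animals.

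**Figure D1:**
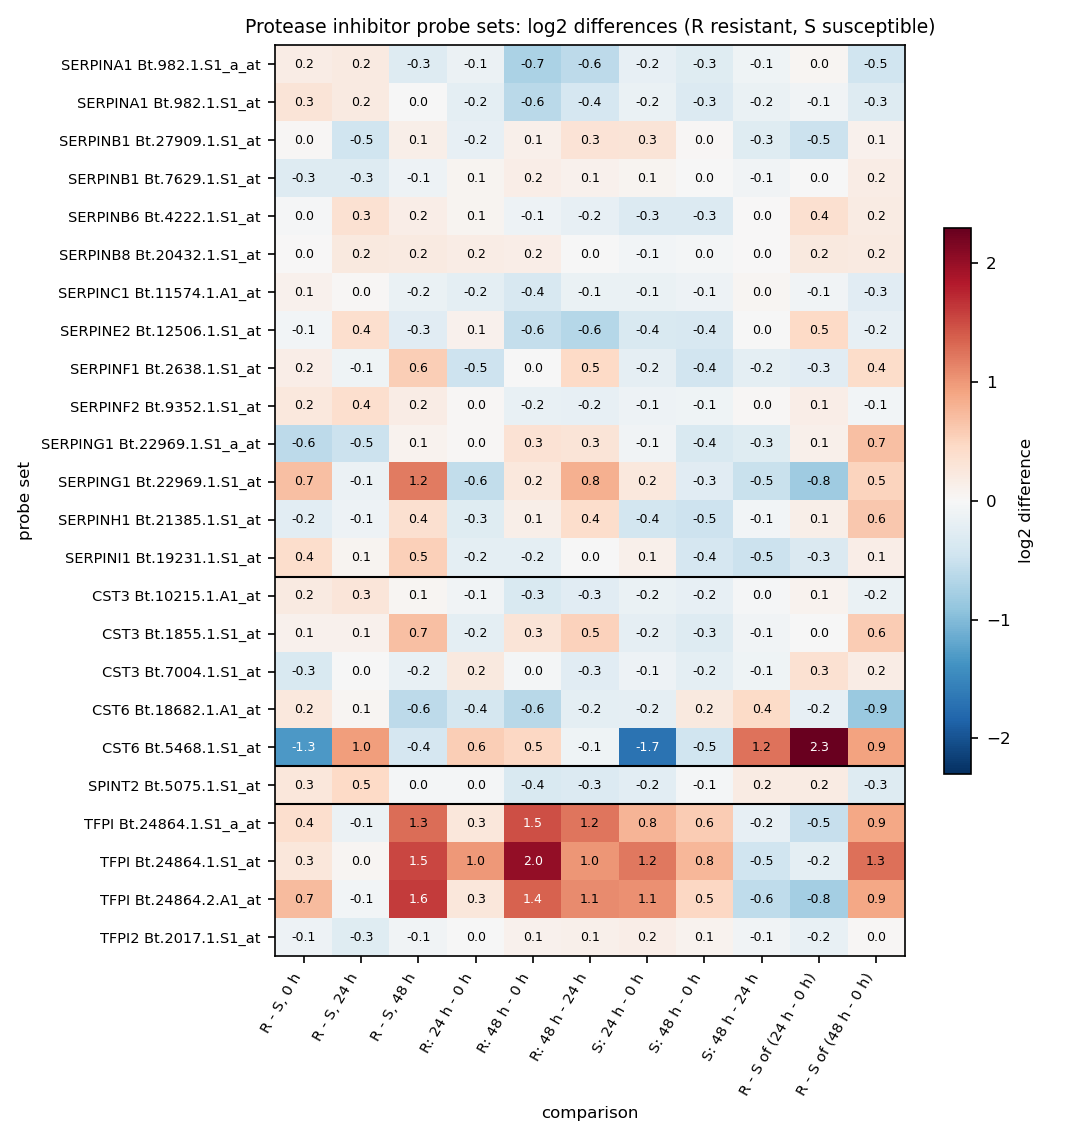
Log2 difference of each tested inhibitor probe set (rows, grouped by family) in each of the 11 comparisons (columns; R resistant, S susceptible), coloured from blue (lower) to red (higher) with the value printed in the cell. The 3 TFPI probe sets are red in the columns for R minus S at 48 h and for R at 48 h minus 0 h, most serpins are pale blue in the column for S at 48 h minus 0 h, and no cell passed the adjusted threshold.

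As a set, the inhibitors lay on both sides of no difference, and over time in susceptible animals most were lower. Between phenotypes at 48 h, 14 of 24 were higher in resistant animals (58.3%) with a median difference of 0.11, while 42.9% of all probe sets were higher and their median was -0.04. The members' median was 0.25 without resistant animal 1, 0.07 without resistant animal 5 and 0.02 without susceptible animal 11. By family, 9 of 14 serpin probe sets were higher (median 0.15), 2 of 5 cystatin probe sets (median -0.17) and 3 of 4 TFPI probe sets (median 1.40). These 3 TFPI probe sets read 1 gene, and 2 of them come from 1 transcript record, so they are not separate evidence. Among these 3, 1 probe set reached the array median in only 4 arrays, 3 of them resistant at 48 h. The filter favoured a higher value there, so the TFPI count and median are a description only. The counts over all members hold this probe set too. In susceptible animals at 48 h against 0 h, 13 of 14 serpin probe sets were lower (median -0.29), and the median over all 24 members was -0.21 against -0.01 over all probe sets. That comparison rests on 3 arrays at 0 h, and no member reached an unadjusted p under 0.05 in it. In susceptible animals at 24 h against 0 h, 8 of 24 members were higher (median -0.14, all probe sets -0.01). At 48 h against 24 h, 7 of 24 were higher there (median -0.08, all probe sets 0.01). In resistant animals at 48 h against 0 h, 12 of 24 members were higher (median 0.05, all probe sets -0.02).

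TFPI, tissue factor pathway inhibitor, is made largely by endothelium and stops clotting at its start by binding factor X and the complex of tissue factor with factor VII. It had the largest differences of the set between phenotypes at 48 h. With probe set Bt.24864.2.A1_at, the 5 resistant arrays at 48 h read 9.38, 9.68, 9.03, 7.56 and 8.65. The 5 susceptible arrays at 48 h read 6.22, 5.32, 6.15, 9.48 and 9.06. The resistant values were therefore high in 4 of 5 arrays, while the susceptible values split into 3 low arrays (animals 7, 9 and 10) and 2 high ones (animals 11 and 13) that lay within the resistant range. The difference was 1.61 ± 0.61 (SE; 3.06-fold; limma adjusted p = 0.375), and it ran from 1.13 to 2.17 when any 1 of the 30 arrays was left out.

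Before infestation the same probe set read 7.90, 8.36, 7.27, 6.86 and 7.10 in resistant animals and 6.33, 5.73 and 8.27 in susceptible animals. At 24 h resistant arrays lay between 7.03 and 8.71 (median 7.54) and susceptible arrays between 6.92 and 8.51 (median 7.91), so the phenotypes covered nearly one range. Susceptible animals 9 and 10 were low at 0 h and at 48 h, and animal 11 was the highest susceptible array at both times. The 48 h level in resistant animals exceeded that at 0 h by 1.36 ± 0.61 (SE; limma adjusted p = 0.413).

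The other TFPI probe sets reached the array median in fewer arrays. Probe set Bt.24864.1.S1_at read 8.74, 9.04, 7.91, 6.63 and 7.90 in resistant animals at 48 h and 6.89, 7.29, 6.15, 2.91 and 6.88 at 0 h. The difference was 2.02 ± 0.77 (SE; 4.05-fold; limma adjusted p = 0.348), and animal 4 at 0 h stood far below the other arrays of its group. Over the arrays left out the difference ran from 1.24 to 2.37, and it was lowest without that array of animal 4. In susceptible animals this probe set read 4.04, 5.28 and 7.96 at 0 h and 5.97, 4.46, 5.41, 8.84 and 7.90 at 48 h. It reached the array median in 10 of 30 arrays, 4 of them resistant at 48 h.

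Probe set Bt.24864.1.S1_a_at read 7.95, 8.29, 7.33, 5.75 and 6.45 in resistant animals at 48 h and 5.25, 5.42, 3.49, 8.09 and 7.12 in susceptible animals. The difference between phenotypes was 1.28 ± 0.62 (SE; limma adjusted p = 0.489), with the same 2 susceptible animals, 11 and 13, high. Without susceptible animal 10 it was 0.69. At 0 h it read 6.38, 6.17, 4.98, 5.13 and 5.69 in resistant animals, and 48 h exceeded 0 h by 1.48 ± 0.62 (SE; limma adjusted p = 0.380) and 24 h by 1.23 ± 0.59 (SE; limma adjusted p = 0.504). It reached the array median in 4 arrays, 3 of them resistant at 48 h, so the filter favoured a higher value there and these differences are a description only.

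TFPI2, a relative that inhibits plasmin and other proteases of the matrix, varied little. Its 30 arrays lay between 11.46 and 12.86. At 48 h the means were 12.12 ± 0.26 (SD, n = 5) in resistant and 12.21 ± 0.23 (SD, n = 5) in susceptible animals, so the phenotypes differed by less than the spread within either group.

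**Figure D2:**
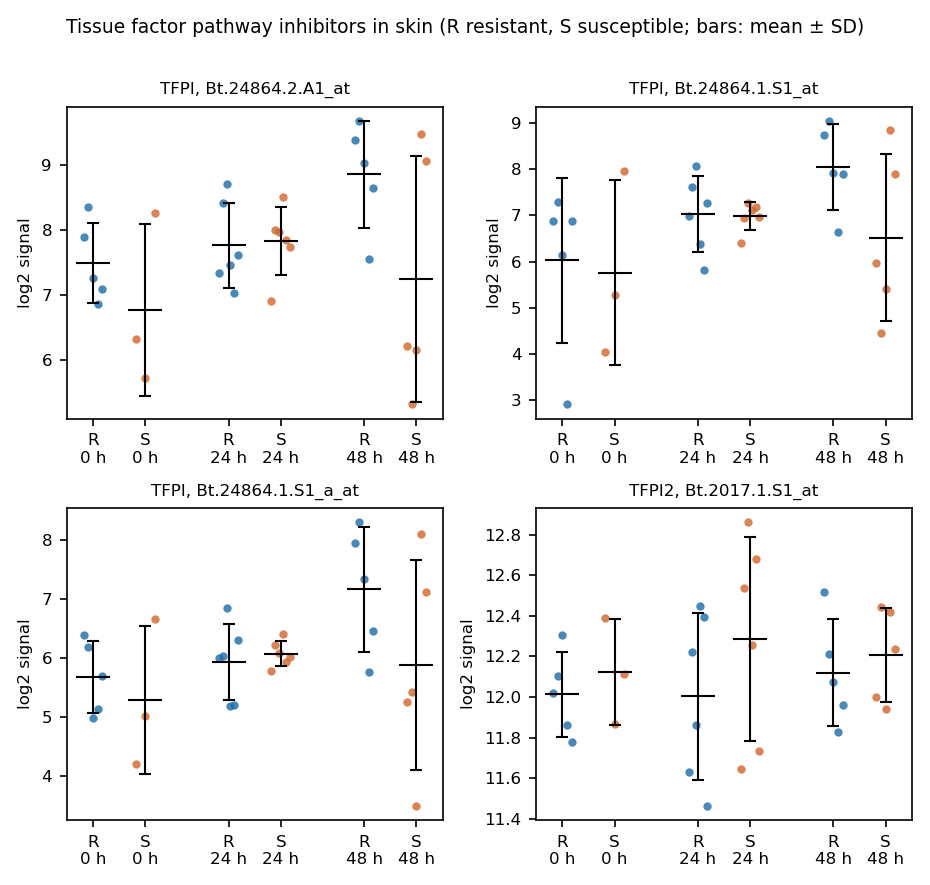
Log2 signal of each array for the 3 TFPI probe sets and the TFPI2 probe set, by phenotype (R resistant, S susceptible) and time; points are arrays and bars are the mean ± SD. In each TFPI panel the S group at 48 h splits into 3 low and 2 high arrays, the 2 high ones within the range of the R group, while the TFPI2 arrays lie between 11.46 and 12.86.

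Cystatin C, encoded by CST3, is a secreted inhibitor of cysteine cathepsins made by many cell types. With probe set Bt.1855.1.S1_at, resistant animals read 14.70, 15.13, 14.25, 14.53 and 14.90 at 48 h. Susceptible animals read 14.05, 13.96, 13.42, 14.65 and 13.95, so the groups overlapped only through susceptible animal 11, which exceeded resistant animals 3 and 5. The difference was 0.69 ± 0.22 (SE; 1.62-fold; limma adjusted p = 0.259), the lowest adjusted p of the set, and ran from 0.55 to 0.85 over the arrays left out.

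At the earlier times this probe set gave nearly one range in both phenotypes. Resistant arrays at 0 h read 14.48, 14.89, 14.46, 13.96 and 14.20 and susceptible arrays 14.26, 14.19 and 14.44. At 24 h the ranges were 13.74 to 14.66 (median 14.15) and 13.55 to 14.63 (median 14.17). Within resistant animals, 48 h exceeded 24 h by 0.52 ± 0.21 (SE; limma adjusted p = 0.457). The 48 h response differed between phenotypes by 0.59 ± 0.33 (SE; limma adjusted p = 1.0).

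The other 2 CST3 probe sets did not share this difference. At 48 h, Bt.7004.1.S1_at was at 11.37 ± 0.43 (SD, n = 5) in resistant and 11.54 ± 0.14 (SD, n = 5) in susceptible animals, and Bt.10215.1.A1_at was at 10.60 ± 0.19 and 10.55 ± 0.32 (SD, n = 5 each). Bt.10215.1.A1_at was lower at 48 h than at 0 h in resistant animals by 0.34 on the log2 scale, as a difference of -0.34 ± 0.16 (SE; limma adjusted p = 0.420). The 3 probe sets of CST3 thus disagreed in sign, and which of them reads the CST3 transcript best was not tested.

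CST6 encodes cystatin M/E, an epidermal cystatin that inhibits legumain and cathepsins of the cornified layer. Its probe set Bt.5468.1.S1_at was among the most variable of the set, with single arrays from 9.22 to 14.19. Susceptible animals read 11.15, 14.00 and 13.73 at 0 h and resistant animals 12.11, 10.96, 11.98, 11.45 and 11.71. At 24 h susceptible arrays lay between 9.89 and 13.57 (median 11.06) and resistant arrays between 11.23 and 13.45 (median 12.20). The 24 h response differed between phenotypes by 2.28 ± 1.05 (SE; limma adjusted p = 1.0), and in susceptible animals 24 h against 0 h was -1.70 ± 0.80 (SE; limma adjusted p = 1.0). Both rest on 3 arrays at 0 h, of which animal 9 was low, and without 1 array the difference of responses ran from 1.76 to 3.18.

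At 48 h this CST6 probe set read 9.22, 13.26, 12.51, 11.87 and 13.69 in resistant animals and 11.78, 13.32, 14.19, 11.67 and 11.55 in susceptible animals. Resistant animal 1 was the lowest of all 30 arrays. The second probe set, Bt.18682.1.A1_at, read 7.06, 7.91, 6.19, 7.18 and 8.02 in resistant animals at 48 h and 7.91, 8.04, 8.18, 7.49 and 7.78 in susceptible animals. Its difference between phenotypes was -0.61 ± 0.28 (SE; limma adjusted p = 0.481), and 48 h against 0 h in resistant animals was -0.63 ± 0.28 (SE; limma adjusted p = 0.413). Resistant animal 3 was lowest, and without 1 array the first of these ran from -0.80 to -0.34. Bt.5468.1.S1_at was at -0.39 ± 0.71 (SE) between phenotypes at 48 h. For 48 h against 0 h in resistant animals the CST6 probe sets disagreed in sign, with Bt.5468.1.S1_at at 0.47 ± 0.71 (SE). The 48 h response differed between phenotypes by -0.85 ± 0.43 with Bt.18682.1.A1_at and by 0.93 ± 1.09 with Bt.5468.1.S1_at (SE). Which probe set reads CST6 better was not tested.

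**Figure D3:**
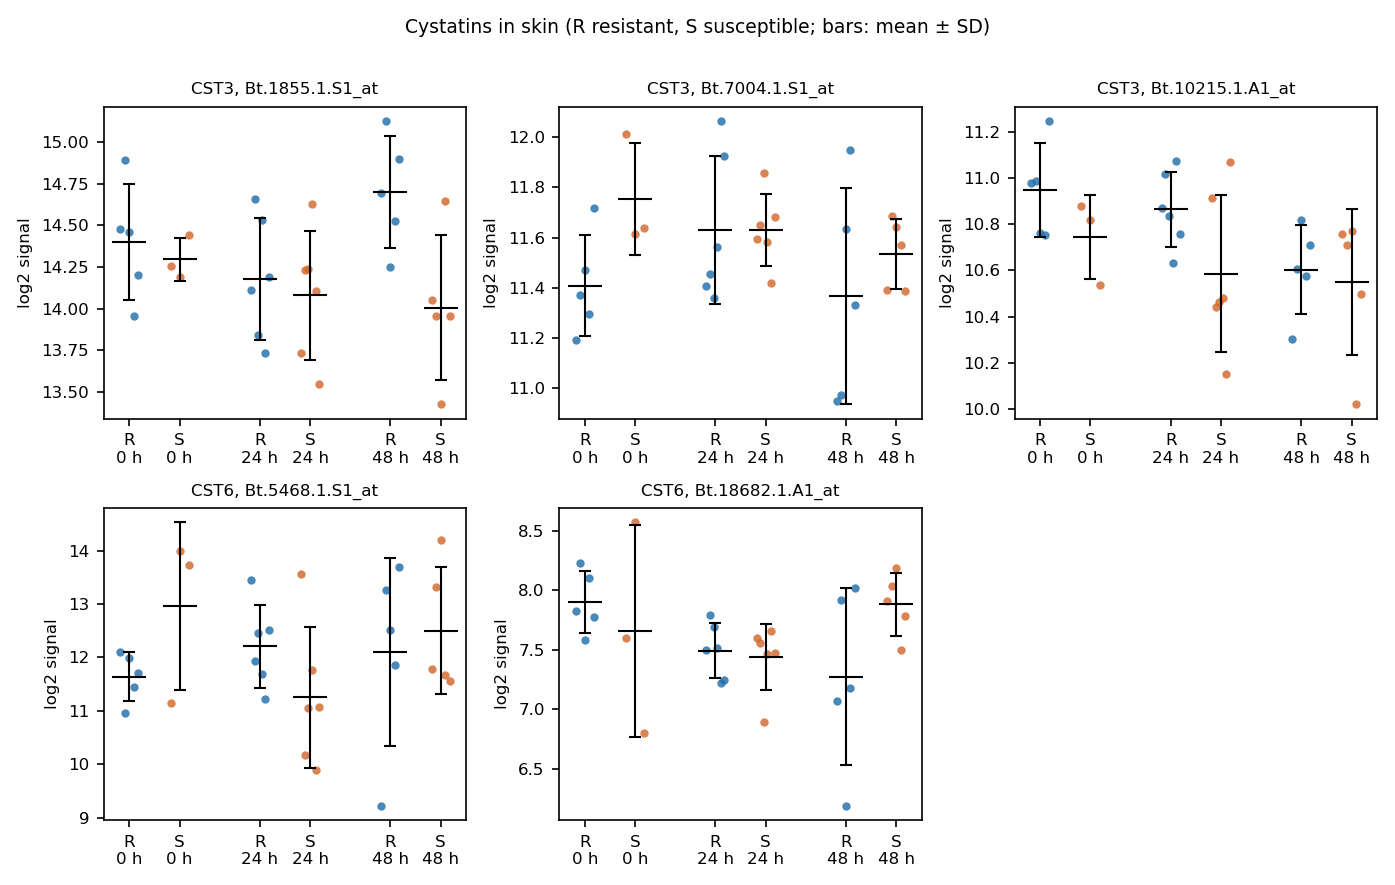
Log2 signal of each array for the 3 CST3 and the 2 CST6 probe sets, by phenotype (R resistant, S susceptible) and time; points are arrays and bars are the mean ± SD. In the first CST3 panel 4 of the 5 S arrays at 48 h lie below every R array, which the other CST3 panels do not show, and the CST6 probe set Bt.5468.1.S1_at spreads from 9.22 to 14.19.

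Among the serpins, SERPINE2 had the smallest p values when 48 h was compared with the earlier times in resistant animals. It encodes protease nexin 1, which is bound to the cell surface and matrix and inhibits thrombin and plasminogen activators. Resistant animals read 10.92, 11.10, 10.94, 10.78 and 11.04 at 0 h, 10.81 to 11.42 at 24 h (median 10.99), and 10.13, 10.11, 10.87, 10.16 and 10.74 at 48 h. At 48 h 3 of 5 arrays lay well below the others (animals 1, 2 and 5), while animal 3 lay within the 0 h range and animal 6 just below it. The difference was -0.55 ± 0.22 against 0 h (SE; limma adjusted p = 0.36) and -0.65 ± 0.21 against 24 h (SE; limma adjusted p = 0.378). The first ran from -0.67 to -0.48 over the arrays left out. Susceptible animals read 10.61, 11.37 and 11.06 at 0 h and 10.59, 10.50, 11.03, 10.45 and 10.70 at 48 h, a difference of -0.36 ± 0.25 (SE; limma adjusted p = 1.0). It was -0.56 without susceptible animal 9 and -0.18 without animal 10 at 0 h. SERPINE2 therefore did not separate the phenotypes at 48 h beyond the spread of their arrays.

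SERPING1 encodes the C1 inhibitor, which restrains complement and the contact system, and its probe sets disagreed in the size of the difference at 48 h. With Bt.22969.1.S1_at, resistant animals read 9.46, 8.59, 8.08, 9.47 and 8.30 at 48 h and susceptible animals 8.57, 6.92, 6.15, 8.35 and 7.93. Susceptible animals 9 and 10 were the lowest, and the rest of that group lay within or just below the resistant range. The difference was 1.20 ± 0.44 (SE; 2.29-fold; limma adjusted p = 0.367). With Bt.22969.1.S1_a_at, from the same transcript record, resistant animals read 12.86, 11.76, 12.47, 13.69 and 11.71 and susceptible animals 11.93, 12.48, 11.91, 13.28 and 12.49. Their means were 12.50 ± 0.83 and 12.42 ± 0.56 (SD, n = 5 each), which differ by less than either SD. At 0 h the probe sets disagreed in sign. The difference between phenotypes was 0.69 ± 0.51 with Bt.22969.1.S1_at and -0.61 ± 0.43 with Bt.22969.1.S1_a_at (SE). The 48 h response differed between phenotypes by 0.51 ± 0.67 and 0.69 ± 0.57 (SE), in the same order.

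SERPINI1, neuroserpin, inhibits tissue plasminogen activator. It read 8.19, 8.06, 8.29, 8.01 and 7.94 in resistant animals at 48 h and 7.83, 6.35, 8.16, 7.53 and 7.90 in susceptible animals. The resistant values lay close together, and susceptible animal 9 was far below the rest. The difference was 0.54 ± 0.26 (SE; limma adjusted p = 0.489), and over the arrays left out it ran from 0.24 to 0.70. At 0 h resistant animals were already higher, by 0.40 ± 0.30 (SE). The 48 h response differed between phenotypes by 0.15 ± 0.40 (SE).

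The clade B serpins act mainly inside cells. SERPINB6, which inhibits cathepsin G, lay between 10.66 and 11.16 (median 10.79) in resistant and between 10.25 and 10.69 (median 10.53) in susceptible animals at 24 h, so the ranges touched at one end. The difference was 0.35 ± 0.14 (SE; limma adjusted p = 0.978). At 0 h it read 10.58, 10.71, 10.86, 10.79 and 11.02 in resistant and 10.69, 10.79 and 10.98 in susceptible animals. At 48 h it read 10.11, 10.36, 10.91, 10.98 and 10.97 in resistant and 10.37, 10.34, 10.46, 10.54 and 10.82 in susceptible animals, and resistant animals 1 and 2 were as low as the lowest susceptible arrays.

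SERPINB1, the leukocyte elastase inhibitor, lay the other way round at 24 h with probe set Bt.7629.1.S1_at. Resistant arrays lay between 10.45 and 11.40 (median 10.83) and susceptible arrays between 10.86 and 11.36 (median 11.19), a difference of -0.30 ± 0.15 (SE; limma adjusted p = 0.978). Its other probe set, Bt.27909.1.S1_at, was at 7.64 ± 0.62 and 8.10 ± 0.39 (SD, n = 6 each). SERPINB8, an inhibitor of furin, had group means from 8.54 to 8.77 and no difference larger than the spread of its arrays.

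**Figure D4:**
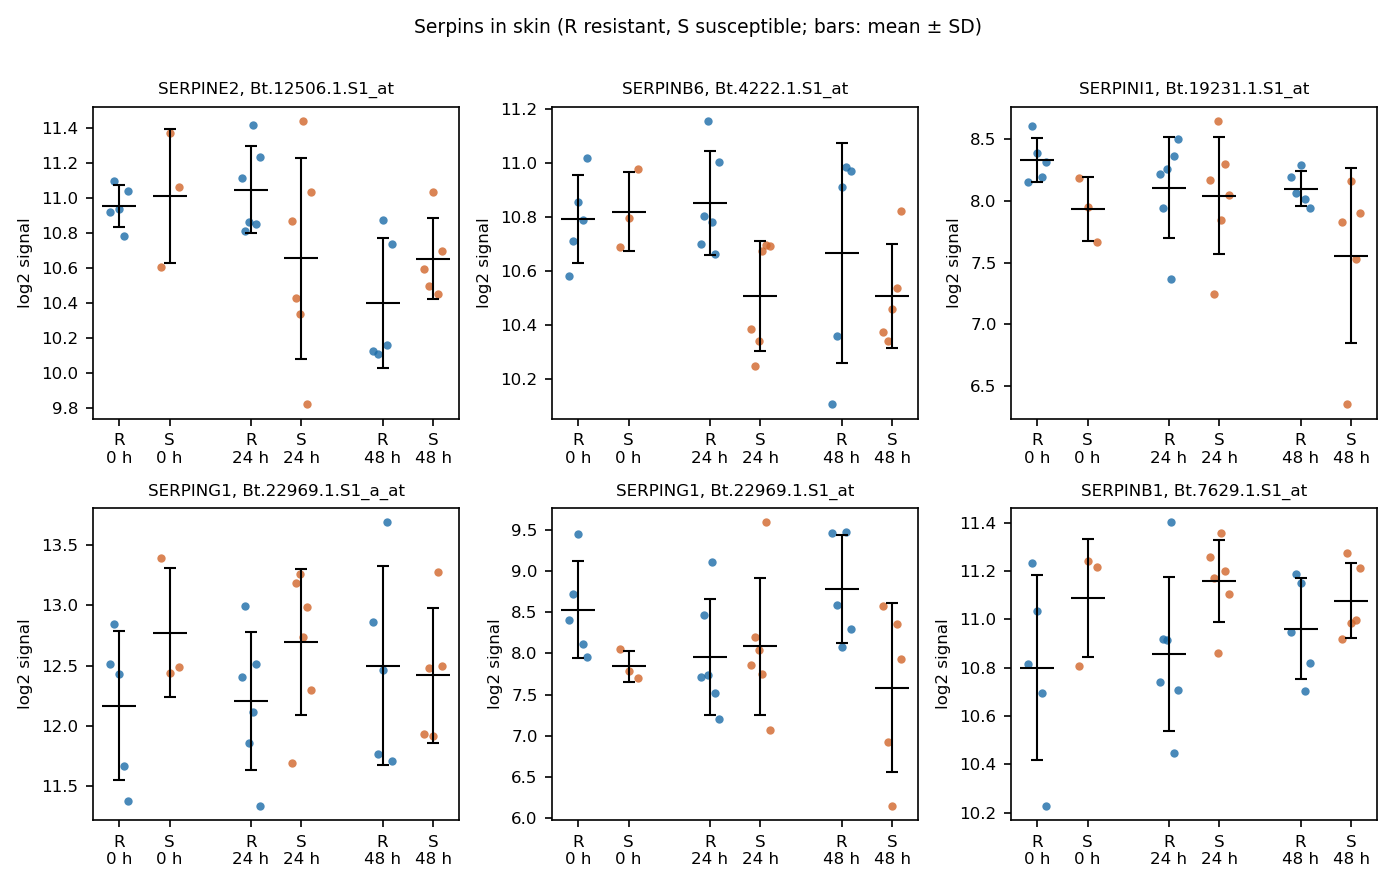
Log2 signal of each array for SERPINE2, SERPINB6, SERPINI1, both SERPING1 probe sets and SERPINB1 (Bt.7629.1.S1_at), by phenotype (R resistant, S susceptible) and time; points are arrays and bars are the mean ± SD. In the R group at 48 h, 3 of 5 SERPINE2 arrays lie near 10.1 against 10.78 to 11.10 at 0 h. The mean of R exceeds that of S at 48 h by 1.20 for SERPING1 probe set Bt.22969.1.S1_at and by 0.08 for Bt.22969.1.S1_a_at.

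Of the remaining serpins, SERPINA1, alpha-1 antitrypsin, the main inhibitor of neutrophil elastase outside cells, was most scattered in resistant animals at 48 h. Probe set Bt.982.1.S1_a_at read 9.36, 10.27, 11.98, 11.80 and 12.27 there, against 11.30, 12.42, 11.19, 11.54 and 12.91 at 0 h, and animals 1 and 2 were the low arrays. SERPINF1, pigment epithelium-derived factor, which restrains vessel growth, had group means from 12.61 to 13.20. SERPINH1, the collagen chaperone, had group means from 11.09 to 11.62. SERPINC1 (antithrombin) and SERPINF2 (antiplasmin), plasma inhibitors made mainly by the liver, lay close to the array median, with group means from 7.50 to 7.87 and from 7.69 to 8.07.

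Among the Kunitz-type inhibitors of membrane proteases, SPINT2, which inhibits matriptase and related proteases of epithelia, had group means from 10.77 to 11.27. At 24 h it was at 11.23 ± 0.36 in resistant and 10.77 ± 0.56 in susceptible animals (SD, n = 6 each), a gap smaller than the larger SD. At 48 h the means were 10.92 ± 0.53 and 10.96 ± 0.57 (SD, n = 5 each).

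Proteases were read from 4 gene lists, and other inhibitors from 1 more. The list of fibrinolysis and coagulation also holds genes that are not proteases, among them F3, F13A1 and TFPI, so its counts are not of proteases alone. In each list 0 genes passed an adjusted p of 0.05 in any of the 11 comparisons, so counts of direction follow. Between phenotypes at 48 h, 9 of 10 measured cysteine cathepsins and legumain were higher in resistant animals (median 0.46, against -0.04 over all probe sets). The lysosomal cathepsins CTSS and CTSB were at 0.89 ± 0.28 (SE; limma adjusted p = 0.264) and 0.54 ± 0.18 (SE; limma adjusted p = 0.316). Of 17 genes of fibrinolysis and coagulation, TFPI itself included, 13 were higher (median 0.28). The transglutaminase subunit F13A1 was at 1.52 ± 0.49 (SE; limma adjusted p = 0.289), and F3, the tissue factor that TFPI holds back, was at -0.71 ± 0.22 (SE; limma adjusted p = 0.244).

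Of 3 leukocyte and mast cell serine proteases, all were higher (median 2.08), with the mast cell tryptase TPSB2 at 2.08 ± 0.65 (SE; limma adjusted p = 0.258). Of 9 epidermal serine proteases 2 were higher (median -0.18), and matriptase, ST14, was at -0.44 ± 0.22 (SE; limma adjusted p = 0.501). Without resistant animal 1 at 48 h, 4 of 9 were higher (median -0.10). Among 10 inhibitors outside these symbols 6 were higher (median 0.09), with TIMP1, an inhibitor of matrix metalloproteinases, at 0.61 ± 0.17 (SE; limma adjusted p = 0.192). At 48 h against 0 h in resistant animals the counts higher were 7 of 10 cathepsins (median 0.17), 10 of 17 coagulation genes (median 0.07) and 3 of 9 epidermal proteases (median -0.23). Without the same array the last of these was 4 of 9 (median -0.06).

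Marker genes of several cell types ran with the 48 h comparisons. In these bulk biopsies, fewer cells of a type and less RNA per cell cannot be told apart. All 10 measured macrophage markers (of 12 listed) were higher in resistant animals at 48 h (median 1.37). The mean log2 signal of the list was 9.33 to 10.34 in resistant and 7.10 to 9.14 in susceptible arrays. The 3 measured mast cell markers (of 8 listed) were also all higher, with list means of 7.62 to 9.27 and 5.95 to 7.73. HDC did not pass the filter. The mast cell list shares a measured gene with the leukocyte and mast cell serine proteases, so their counts are not separate evidence. The 7 measured endothelial markers (of 10 listed) split, with 3 higher (median -0.07) and list means of 9.17 to 9.88 and 9.13 to 10.21, and KDR and VWF did not pass the filter. Over time they did not split. In resistant animals 6 of 7 were higher at 48 h than at 0 h (median 0.35), and 7 of 7 higher than at 24 h (median 0.40). Against 0 h, 3 of 7 were at an unadjusted p under 0.05, where the share over all probe sets was 11%. For the 48 h response, 7 of 7 were higher in resistant animals (median 0.37). Without resistant animal 1 at 48 h these medians were 0.21, 0.26 and 0.27. Between phenotypes at 0 h, 1 of 7 endothelial markers was higher in resistant animals (median -0.44), and at 24 h also 1 of 7 (median -0.58). The 48 h response starts from that 0 h level, which rests on 3 susceptible arrays. The part of these macrophage, mast cell and endothelial markers in the TFPI and CST3 values was not tested.

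Keratinocyte markers ran the other way. All 6 measured basal markers were lower in resistant animals at 48 h (median -0.63), and 4 of 5 differentiated markers (median -0.55). Without resistant animal 1 at 48 h the medians were -0.19 and -0.28, with 2 of 5 differentiated markers higher. Their list means were 8.99 to 11.47 against 10.58 to 12.02 for basal markers. Every basal, differentiated and fibroblast marker gene with a probe set passed the filter. Of the fibroblast markers 10 of 11 were higher (median 0.37). The part of keratinocyte markers in the CST6 and SPINT2 values was not tested.

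The array of resistant animal 1 at 48 h stood apart from the rest on the first principal component (17.7% of the variance), at 65.6 against 38.3 for the next. It had the lowest basal keratinocyte mean of the 48 h arrays, 8.99. Without it the differences between phenotypes at 48 h were 1.48 for TFPI (Bt.24864.2.A1_at), 0.70 for CST3 (Bt.1855.1.S1_at) and -0.56 for CST6 (Bt.18682.1.A1_at), and SERPINE2 at 48 h against 0 h was -0.48. A sign of RNA integrity, the gap between the 3' and 5' actin control probe sets, had a median of 4.40 in resistant arrays at 48 h (1.16 to 4.86), 2.63 at 0 h (1.92 to 3.43) and 2.97 in susceptible arrays at 48 h (1.67 to 3.68). The same gap for GAPD had medians of 0.57, 0.37 and 0.56 in these groups. At 24 h the actin gap had a median of 3.73 in resistant arrays (1.48 to 5.76) and 3.49 in susceptible arrays (1.04 to 4.59). The GAPD medians at 24 h were 0.70 and 0.89. The part of RNA integrity in the values above was not tested.

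The share of a probe set's variance over 30 arrays that lay between animal numbers ran from 27.9% to 74.4% over the 24 members, with a median of 49.8%. The median over all tested probe sets was 47.6%, and 41.4% is what the number of animals gives with no effect of the animal, so the members' share was near that of all probe sets. The highest share was that of SERPINB8. With the 0 h arrays of resistant animals numbered 3, 4 and 5 renumbered 4, 5 and 6, as their profiles match the later arrays best, it was 41.0%. The differences and tests above use the numbers in the labels, and the fixed block was also fitted with these 3 numbers moved.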

How the data were processed

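RNA was extracted with Trizol, purified, amplified with a 3' kit and hybridised to a bovine Affymetrix array, according to the protocols in the labels. The authors deposited log2 signals made with MAS5, per the submitters' processing notes; the version and further steps are not given in the sources used here. In each array the linear signal has a trimmed mean of 500 (2% trimmed at each end). An array gives no counts, so the number of arrays limits precision.

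Of 24128 probe sets, 112 controls were removed, and probe sets at or above the array median in at least 3 arrays were kept (13809). Gene symbols came from the platform annotation, where 86 probe sets had several symbols and 10638 had none. Group means of all 30 arrays were fitted with limma 3.58.1 in R 4.3.3 (eBayes with an intensity trend, two-sided, Benjamini-Hochberg, threshold 0.05), and the procedure was tested on simulated data. Animals are the replicates, and arrays of one animal are not independent. Labels give animal numbers, which pair arrays across times. Over 100 probe sets that vary between animals, 5 of 8 arrays at 0 h were closest to their own number, and resistant animals 3, 4 and 5 were closest to the later arrays of 4, 5 and 6. The members and the 17 gene lists were chosen with earlier results of these data known. Members are given with their values when they were among the 2 genes with the smallest unadjusted p in a comparison, or the 2 genes with the highest mean in a family; other probe sets of those genes follow, as do members at an unadjusted p under 0.05. SERPINA1, SERPINB8, SERPINC1, SERPINF2 and SERPINH1 were added after their values were seen. At most 2 genes of a list are named, those with the smallest p between phenotypes at 48 h.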

Additional observations from a re-analysis of the deposited data

Results flagged for a closer look

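In 90 groups of 5 or 6 arrays tested for a single array standing apart, by Dixon's criterion at its 95% limit, 3 were found, and chance gives about 1 in 20. CST6 (Bt.18682.1.A1_at) was at 6.89 in susceptible animal 10 at 24 h, where the other 5 arrays lay between 7.47 and 7.66. SERPINF1 was at 10.59 in susceptible animal 10 at 48 h, where the others lay between 12.63 and 13.42. TFPI (Bt.24864.1.S1_at) was at 2.91 in resistant animal 4 before infestation, where the others lay between 6.15 and 7.29.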

How the results depend on the processing

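The number of members called stayed at 0 in each of the 11 comparisons under array weights, an offset of 16 on the linear signal, quantile normalization, arrays set to a common median, all probe sets tested without a filter, no intensity trend, a fit of only the groups compared, the animal as a random replicate block, and each of the 30 arrays left out. It was also 0 with the animal as a fixed replicate block in the 8 comparisons that block allows, which are those over time and of the responses. The lowest adjusted p of a member in any of these was 0.0713 (limma; CST3, 48 h against 24 h in resistant animals, fixed replicate block with 3 numbers moved). The correlation of arrays of 1 animal in the random block was 0.14. None of the 1220 alternative values of the 31 differences reversed its sign. These 31 differences were chosen for their small unadjusted p in these same data, so their steady signs support nothing. The number of members at an unadjusted p under 0.05 was less steady. Between phenotypes at 48 h it was 6 (10.1% of all probe sets), and 2 when only the groups compared were fitted (6.67%). It ran from 2 to 7 over the arrays left out. At 48 h against 0 h in resistant animals it was 6, and 9 with the fixed replicate block (10 with 3 numbers moved). The shares over all probe sets under these blocks were 17.7% and 19.5%, and 84 and 108 probe sets passed the adjusted threshold, none of them a member. Over the arrays left out it ran from 2 to 7. At 48 h against 24 h in resistant animals the count was 3 (9.65% of all probe sets). It was 1 under quantile normalization (9.23%) and 5 with the random block (12.9%). It was 7 with the fixed block (14.2%) and 6 when only the groups compared were fitted (8.47%). Over the arrays left out it ran from 1 to 5. Shares over all probe sets are not given for the arrays left out, so those ranges are not a result about the members. The causes were not tested. Low signals limit what can be said of TFPI and of the 19 probe sets not tested, and the 3 susceptible arrays at 0 h limit every comparison with them.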
